A study of Mus musculus with 24 samples.

Results

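Transcript levels of 10 feedback and early target genes of the FGF–ERK pathway were followed in mouse embryonic stem cells (ESCs) and in expanded potential stem cells (EPSCs) converted from them. The members were chosen by gene name: Spry1, Spry2, Spry4, Spred1, Spred2, Dusp4, Dusp6, Etv4, Etv5 and Egr1. All 10 were found in both deposited tables, which list 23095 and 25476 genes, and all 10 could be tested. The first table holds wild-type J1 ESCs kept in serum and LIF with the inhibitors CHIR99021 and PD0325901, and the D-EPSCs and L-EPSCs made from them, named after the 2 published EPSC media. The D-EPSC medium contains serum replacement in place of serum, LIF, CHIR99021, dimethindene maleate and minocycline hydrochloride, and no PD0325901. The L-EPSC medium contains serum replacement in place of serum, LIF, CHIR99021, PD0325901, A-419259, XAV939, JNK inhibitor VIII and SB203580. The second table holds 3 tet-off knockin lines, Oct4-cKO (ZHBTc4), Sox2-cKO (2TS22C) and Nanog-cKO (NgcKO), each as ESCs, as L-EPSCs and as L-EPSCs given doxycycline (Dox). In each of these lines the endogenous gene is deleted and a Dox-suppressible transgene maintains the cells, so the untreated cells carry the deletion too. The tet-off lines were not made into D-EPSCs, and neither the medium of the tet-off ESCs nor the length of Dox exposure before RNA was taken is given separately in the sources used here. There were 12 groups of 2 libraries, 24 in all, and whether the 2 libraries of a group came from separate conversions is not stated, so p-values measure only the spread between these samples. L-EPSCs and D-EPSCs of J1 were compared with the same ESC libraries, and the untreated tet-off L-EPSCs served both the conversion and the Dox comparisons.

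FGF receptors signal through Ras, Raf and MEK to the kinase ERK, and ERK activity switches on genes that dampen the same cascade. Sprouty proteins (Spry) and Spred proteins act on the cascade between the receptor and Raf. Dusp6 and Dusp4 remove phosphate from ERK, in the cytoplasm and in the nucleus respectively. Etv4 and Etv5 are Ets family transcription factors induced by FGF signalling, and Egr1 is a zinc finger factor that responds within minutes to ERK activity. Transcripts of these genes are commonly read as a measure of ERK output. In mouse ESCs, Fgf4 made by the cells themselves stimulates ERK and favours exit from self-renewal, and PD0325901 blocks MEK.

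Promoter windows were read for the members from RefSeq on GRCm38.p6, because these genes moved largely together. Among the windows read, Spry1, Spry2, Spred1, Spred2, Dusp6 and Etv5 had an entry, Etv5 with 2 windows. Spry4 and Egr1 lie in a part of the genome that was left out of the windows read. Dusp4 and Etv4 had no entry among the windows read. The promoters of Spry4, Dusp4, Etv4 and Egr1 were therefore not scanned. The part left out is also missing from the shares of windows given below. Whether RefSeq holds entries for these genes outside the windows read was not tested. The 250 bases before the gene start are shown for 1 gene of each inhibitor family: Dusp6 at chr10:99262981-99263230 on the plus strand, Spry2 at chr14:105896820-105897069 on the minus strand, and Spred2 at chr11:19924192-19924441 on the plus strand. Capitals mark GGAA, the core that Ets factors read, on either strand (TTCC on the strand shown).
Dusp6: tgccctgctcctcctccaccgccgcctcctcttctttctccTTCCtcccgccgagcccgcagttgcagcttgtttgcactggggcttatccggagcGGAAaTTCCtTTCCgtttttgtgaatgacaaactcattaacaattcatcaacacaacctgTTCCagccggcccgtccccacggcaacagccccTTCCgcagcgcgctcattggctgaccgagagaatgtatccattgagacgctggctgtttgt
Spry2: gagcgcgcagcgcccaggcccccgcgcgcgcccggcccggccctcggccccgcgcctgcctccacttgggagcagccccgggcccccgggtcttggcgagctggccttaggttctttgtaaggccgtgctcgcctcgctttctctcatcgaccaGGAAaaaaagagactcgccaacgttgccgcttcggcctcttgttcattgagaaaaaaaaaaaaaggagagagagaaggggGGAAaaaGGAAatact
Spred2: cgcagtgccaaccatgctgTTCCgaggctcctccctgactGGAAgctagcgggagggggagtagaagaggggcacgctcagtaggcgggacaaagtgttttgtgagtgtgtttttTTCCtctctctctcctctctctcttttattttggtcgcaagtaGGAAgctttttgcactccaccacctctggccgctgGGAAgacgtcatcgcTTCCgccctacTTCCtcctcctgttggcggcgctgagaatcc
The stretch of Dusp6 held 6 such cores, that of Spry2 held 3 and that of Spred2 held 7. GGAA is so short that 96% of the 32851 mouse promoter windows of 300 bases read from RefSeq hold it on some strand. So did 6 of the 7 member windows, all but 1 of the 2 of Etv5. The longer Ets form CCGGAA was present in 14.9% of the windows read. Among the 6 members with a window it was in that of Spry2 alone, after the gene start. The AP-1 motif TGANTCA, the CRE TGACGTCA, the CArG box and the Egr motif GCGNGGGCG were in no window of those 6 members. They were found in 7.81%, 1.79%, 1.63% and 5.55% of the windows read. For Spry4, Dusp4, Etv4 and Egr1 the presence of any of these motifs was not tested. These are letter matches only.

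The libraries held 10807631 to 15069899 reads in genes. Dox lowered the targeted transcript in each line. Pou5f1, which encodes Oct4, went from 6368 ± 73.7 to 173 ± 15.5 normalized counts (SD, n = 2) in the Oct4-cKO line, a log2 change of −5.19. Sox2 went from 4833 ± 188 to 50.1 ± 4.33 in the Sox2-cKO line (−6.57), and Nanog from 8983 ± 192 to 3139 ± 38.2 in the Nanog-cKO line (−1.52). Markers of other cells differed between the groups, and in bulk RNA fewer cells of a type and less RNA per cell cannot be told apart. The summed normalized counts of 12 fibroblast markers were 103631 to 106050 in J1 ESCs, 65202.5 to 65292.6 in D-EPSCs and 22971.3 to 23486 in L-EPSCs, against 392 to 1195 for the 11 listed in the tet-off table, where Lum was at 0 in the ESCs of all 3 lines. Of the 12, 5 fell and 4 rose in D-EPSCs, and 9 fell in L-EPSCs. The 12 macrophage markers summed to 6694.77 to 6729.48 in J1 ESCs, 26132.9 to 26519.8 in D-EPSCs and 19946.7 to 20072.7 in L-EPSCs, against 344 to 3177 in the tet-off libraries, whose ESCs had Adgre1, Aif1, Mpeg1 and Tyrobp at 0. Of these 12, 10 rose in D-EPSCs and 7 in L-EPSCs. ESC markers summed to 78944.4 to 79236.7 in J1 ESCs, 44553.7 to 45158.6 in D-EPSCs and 56180.8 to 56640.7 in L-EPSCs, with 5 and 4 of 10 lower. In the tet-off conversions 4, 1 and 6 of those 10 fell in the Oct4-cKO, Sox2-cKO and Nanog-cKO lines. Of 12 primitive endoderm markers, 8, 4 and 5 rose and 1, 6 and 3 fell there, their sum going from 8033.55 to 8301.73 in Oct4-cKO ESCs to 23297.8 to 23322.2 in L-EPSCs, and of 12 trophoblast markers 7, 0 and 4 rose and 0, 4 and 1 fell. In J1, 6 primitive endoderm markers rose and 1 fell in D-EPSCs and 4 rose in L-EPSCs, while of 11 trophoblast markers tested 6 fell in D-EPSCs, and 3 rose and 4 fell in L-EPSCs. Their part in the results was not tested.

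**Figure D1:**
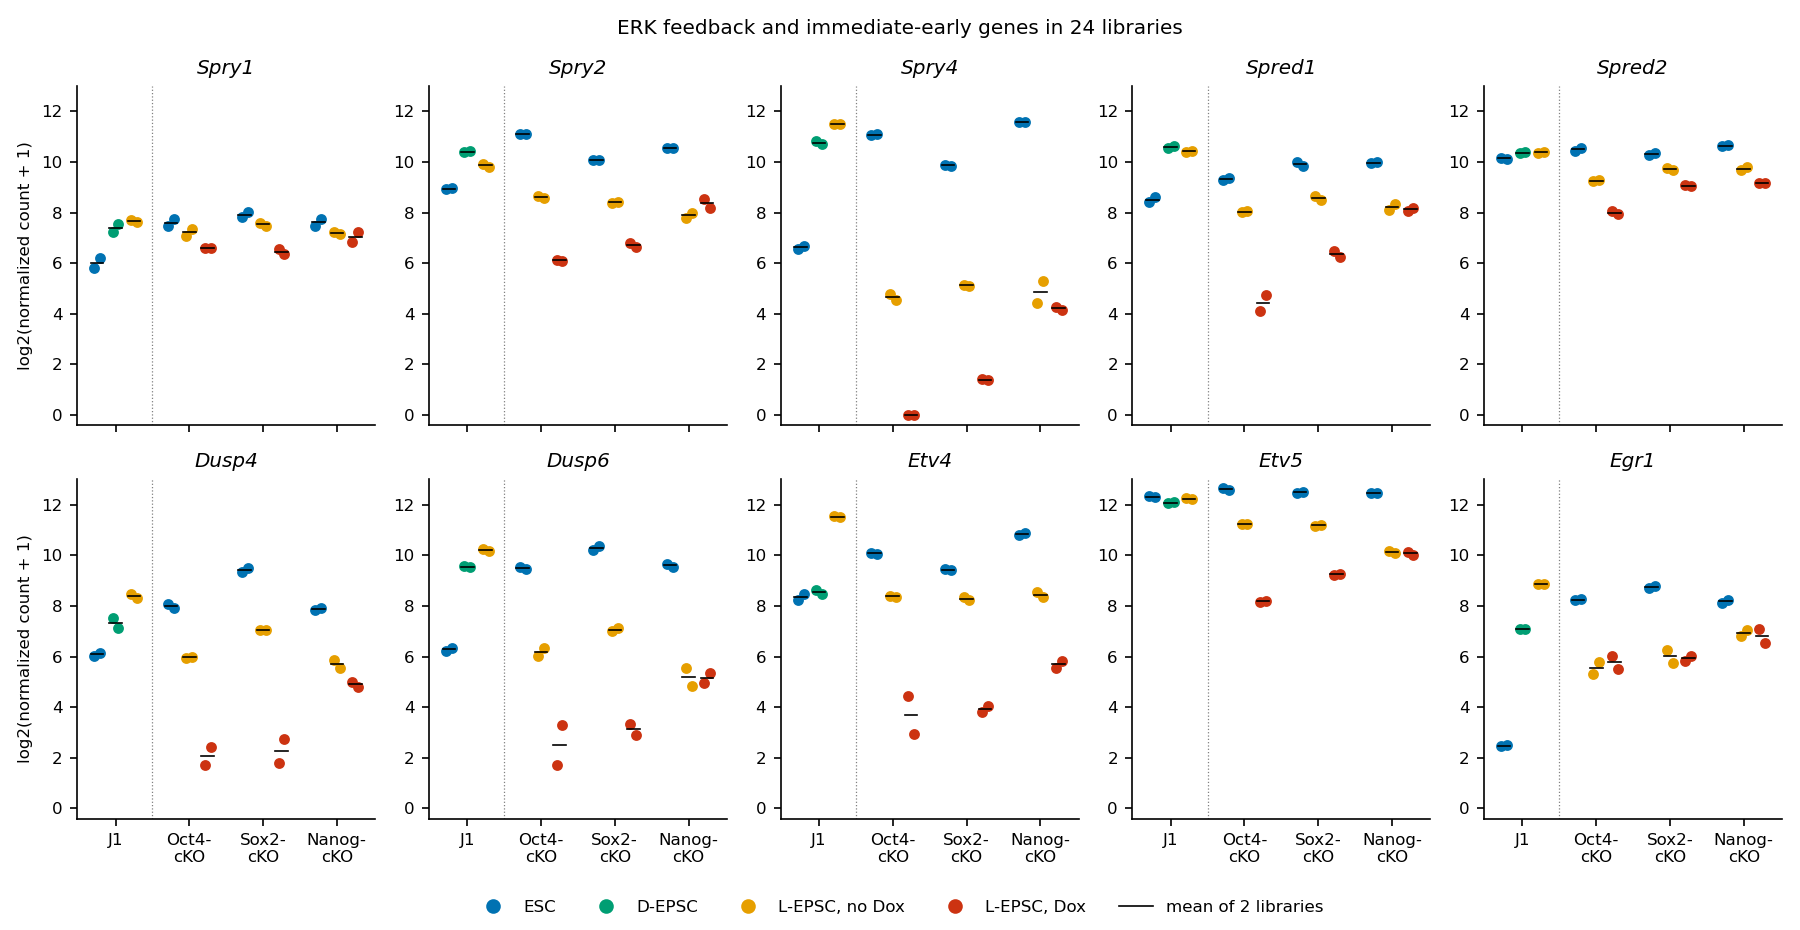
Each panel plots 1 of the 10 genes, with log2(normalized count + 1) on the vertical axis and the 12 groups along the horizontal axis; points are libraries, the black line is the mean of 2, and the dotted line separates the J1 table from the tet-off table, which were normalized separately. J1 ESCs sit below both J1 EPSC groups for 8 of the genes, among them Egr1 at 4.49 and 4.61 normalized counts, while tet-off ESCs sit above the tet-off L-EPSCs for most.

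Most of the members were higher in J1 EPSCs than in J1 ESCs. Each J1 group was grown in its own medium, so the medium and the cell state cannot be told apart. Among the 10 genes, 7 rose in D-EPSCs and 8 in L-EPSCs, and none fell. Called genes had an adjusted p under 0.05 by limma over all genes and a log2 fold change beyond 0.6. Of all 21533 genes tested, 10.8% were called higher in D-EPSCs and 8.80% in L-EPSCs. The median log2 fold change of the members was 1.43 in D-EPSCs and 2.11 in L-EPSCs, beside 0.013 and 0 over all genes.

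Spry4 (ENSMUSG00000024427, chromosome 18, 38745922 to 38760922 on NCBIM37), a Sprouty inhibitor, read 94.4 and 101 normalized counts in the J1 ESC libraries. Its D-EPSC libraries read 1800.3 and 1661 and its L-EPSC libraries 2872 and 2931. The 3 groups did not overlap, and the L-EPSC mean was 29.6-fold that of ESCs. The log2 fold change against ESCs was 4.13 ± 0.0615 (SE) in D-EPSCs and 4.88 ± 0.0615 in L-EPSCs (limma adjusted p = 1.22e-08 and 4.11e-09). Spry2 (ENSMUSG00000022114, chromosome 14, 106291166 to 106296036) read 482 and 504 in ESCs, 1351 and 1366 in D-EPSCs, and 971 and 899.9 in L-EPSCs. For this gene the D-EPSCs were the highest group, with log2 fold changes of 1.46 and 0.92 (limma adjusted p = 6.95e-07 and 7.87e-06). Spry1 (ENSMUSG00000037211, chromosome 3, 37538869 to 37543520) read 54.8 and 71.9 in ESCs, 151 and 187 in D-EPSCs, and 206 and 198 in L-EPSCs, a rise of 1.41 and 1.67 on the log2 scale (limma adjusted p = 0.000437 and 0.000169).

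The Spred genes parted. Spred1 (ENSMUSG00000027351, chromosome 2, 116947110 to 117008015) read 337 and 392 in ESCs, 1486 and 1575 in D-EPSCs, and 1344 and 1386 in L-EPSCs. Both EPSC groups were above the ESCs, by 2.07 and 1.91 on the log2 scale (limma adjusted p = 5.45e-07 and 8.92e-07). Spred2 (ENSMUSG00000045671, chromosome 11, 19824378 to 19924029) read 1145 and 1123 in ESCs, 1289.7 and 1351 in D-EPSCs, and 1297 and 1361 in L-EPSCs. Both EPSC groups lay above the ESCs and overlapped each other, but the log2 differences of 0.22 and 0.23 were under 0.6, so it was not called (limma adjusted p = 0.00641 and 0.00502).

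Both ERK phosphatases rose. Dusp6 (ENSMUSG00000019960, chromosome 10, 98725865 to 98730122) read 73.7 and 80.2 in ESCs, 763 and 742 in D-EPSCs, and 1210.0 and 1168 in L-EPSCs. The increase was 3.27 ± 0.0727 and 3.93 ± 0.0727 on the log2 scale (limma adjusted p = 5.78e-08 and 2.95e-08), and the L-EPSC mean was 15.4-fold that of ESCs. Dusp4 (ENSMUSG00000031530, chromosome 8, 35870351 to 35882948) read 64.7 and 70.1 in ESCs, 183 and 138 in D-EPSCs, and 357 and 318 in L-EPSCs. Its log2 fold changes were 1.23 and 2.31 (limma adjusted p = 0.000535 and 1.63e-05). Without ESC replicate 1 the D-EPSC change of Dusp4 was 1.17 with a limma adjusted p of 0.0505, which would not be called.

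The transcription factors showed 3 patterns. Egr1 (ENSMUSG00000038418, chromosome 18, 35020861 to 35024638) was nearly absent from J1 ESCs, at 4.49 and 4.61 normalized counts, which are 5 reads in each library. It read 136 and 135 in D-EPSCs and 466 and 468 in L-EPSCs, a rise of 4.62 ± 0.172 and 6.40 ± 0.172 on the log2 scale (limma adjusted p = 6.52e-07 and 1.78e-07). The L-EPSC mean was 103-fold that of ESCs, a ratio that rests on those few ESC reads.

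Etv4 (ENSMUSG00000017724, chromosome 11, 101631056 to 101646685) read 302 and 357 in ESCs, 391 and 352 in D-EPSCs, and 2977 and 2948 in L-EPSCs. It rose in L-EPSCs by 3.17 ± 0.0873 on the log2 scale (limma adjusted p = 1.91e-07). In D-EPSCs the libraries overlapped those of ESCs, and the log2 difference of 0.18 (95% interval −0.03 to 0.38) was not called (limma adjusted p = 0.158). Etv5 (ENSMUSG00000013089, chromosome 16, 22381382 to 22439792), its close relative, read 5165 and 5039 in ESCs, 4310.2 and 4383 in D-EPSCs, and 4914 and 4766 in L-EPSCs. The log2 differences were −0.23 and −0.076 (limma adjusted p = 0.000368 and 0.0643), both within 0.6 and so not called.

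Between the EPSC types, 5 of the members were higher in the L-type and none was lower by the call, against 4.80% of all genes called higher. Etv4 differed by 2.99 on the log2 scale, Egr1 by 1.78, Dusp4 by 1.08, Spry4 by 0.75 and Dusp6 by 0.66 (limma adjusted p = 5.77e-07, 0.000188, 0.00157, 8.24e-05 and 0.000372). The median log2 difference of the members was 0.46, and that over all genes was 0. Dusp4 missed the threshold without L-EPSC replicate 1 (limma adjusted p = 0.0693) or replicate 2 (0.0531). Spry2 was lower in L-EPSCs by 0.54 on the log2 scale, under the fold required (limma adjusted p = 0.000254), and Spred2 did not differ beyond its spread, at 0.01 with a 95% interval of −0.10 to 0.12.

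In the 3 tet-off lines most members fell on conversion to L-EPSCs. In each of the Oct4-cKO, Sox2-cKO and Nanog-cKO lines, 9 of the 10 genes fell and none rose, the exception in each being Spry1. Of 24007 genes tested, 15.4%, 11.6% and 14.7% were called lower in those lines. The members' median log2 fold changes were −1.86, −1.52 and −2.24, beside 0 over all genes in each.

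Spry4 had the largest fall in every line. Its ESC libraries read 2116 and 2173 in the Oct4-cKO line, 953 and 908 in the Sox2-cKO line, and 3051 and 3017 in the Nanog-cKO line. The untreated L-EPSC libraries read 26.6 and 22.5, 34.6 and 32.9, and 20.2 and 38.7 in the same order. Mean ESC levels were 87.4-, 27.6- and 103-fold those of L-EPSCs, and the log2 fold changes were −6.40, −4.74 and −6.71, each ± 0.241 (limma adjusted p = 2.04e-12, 1.82e-10 and 1.3e-12). Spry2 fell from 2222 and 2193 to 404 and 379 in the Oct4-cKO line, from 1089 and 1091 to 334 and 342 in the Sox2-cKO line, and from 1514 and 1488 to 219 and 254 in the Nanog-cKO line. No L-EPSC library of a line reached the ESC libraries of that line, and the log2 fold changes were −2.49, −1.69 and −2.66 (limma adjusted p = 3.73e-12, 1.05e-09 and 1.99e-12).

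Spry1 stood apart from its relatives. It read 176 and 211 in Oct4-cKO ESCs against 134 and 162 in L-EPSCs, 225 and 258 against 191 and 178 in the Sox2-cKO line, and 178 and 214 against 150.2 and 143 in the Nanog-cKO line. The groups did not overlap, but the log2 differences were small, at −0.38, −0.38 and −0.41, and none was called (limma adjusted p = 0.0564, 0.0658 and 0.0425).

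Dusp6 fell from 741 and 697 to 63.9 and 79.9 in the Oct4-cKO line, from 1190.3 and 1306 to 126 and 139.7 in the Sox2-cKO line, and from 813 and 743 to 45.8 and 27.5 in the Nanog-cKO line. These are log2 fold changes of −3.31, −3.22 and −4.41, each ± 0.36 (limma adjusted p = 8.76e-07, 2.06e-06 and 3e-08). Dusp4 fell from 266 and 239 to 61.2 and 62.0, from 654 and 727 to 131 and 129.7, and from 226 and 238 to 56.5 and 45.9. Its log2 fold changes were −2.01, −2.40 and −2.16 (limma adjusted p = 1.57e-05, 3.68e-06 and 7.48e-06).

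Spred1 fell from 628 and 657 to 261 and 263 in the Oct4-cKO line, from 1025 and 926 to 399.7 and 363 in the Sox2-cKO line, and from 989 and 1021 to 276 and 324 in the Nanog-cKO line, with log2 fold changes of −1.29, −1.35 and −1.75 (limma adjusted p = 2.11e-06, 2.07e-06 and 6.33e-08). Spred2, which J1 conversion left uncalled, fell from 1392 and 1497 to 609 and 615, from 1229 and 1322 to 866 and 810.1, and from 1582 and 1621 to 816 and 884. The log2 fold changes were −1.24, −0.60 and −0.91 (limma adjusted p = 4.36e-11, 5.44e-07 and 2.07e-09). The Sox2-cKO value lay just past the fold required, and it fell short of it by edgeR (−0.58), without ESC replicate 2 (−0.55) and without L-EPSC replicate 2 (−0.56).

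Etv5 fell from 6452 and 6183 to 2383 and 2424 in the Oct4-cKO line, from 5645 and 5842 to 2290.2 and 2379 in the Sox2-cKO line, and from 5608 and 5647 to 1159.9 and 1095 in the Nanog-cKO line. Etv4 fell from 1098 and 1059 to 335 and 327, from 698 and 679.7 to 326 and 299, and from 1796 and 1869.9 to 375 and 322. For Etv5 the log2 fold changes were −1.39, −1.30 and −2.32 (limma adjusted p = 2.95e-13, 2.34e-12 and 6.86e-16), and for Etv4 −1.70, −1.14 and −2.40 (0.000139, 0.00547 and 3.78e-06). The Sox2-cKO call of Etv4 was lost without ESC replicate 1, ESC replicate 2 or L-EPSC replicate 2 (limma adjusted p = 0.0629, 0.0550 and 0.0701).

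Egr1 fell from 297 and 307 to 38.2 and 53.9 in the Oct4-cKO line, from 417 and 440.4 to 75.6 and 52.9 in the Sox2-cKO line, and from 279 and 300.4 to 113 and 132 in the Nanog-cKO line. ESCs held 6.56-, 6.67- and 2.37-fold the L-EPSC level. The log2 fold changes were −2.71, −2.74 and −1.24 (limma adjusted p = 3.14e-08, 5.34e-08 and 0.000214).

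**Figure D2:**
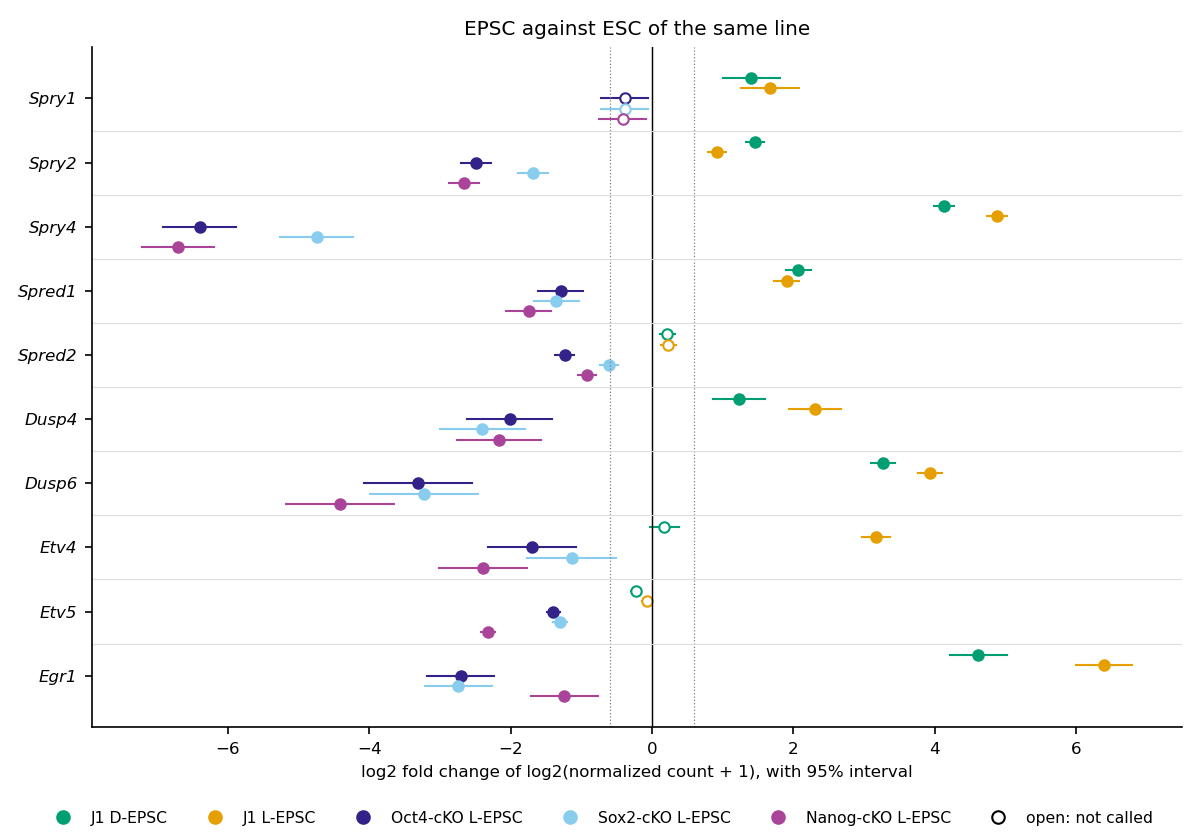
The horizontal axis gives the log2 fold change of EPSCs against ESCs for the 10 genes, with bars for 95% intervals, in J1 D-EPSCs, J1 L-EPSCs and the Oct4-cKO, Sox2-cKO and Nanog-cKO L-EPSCs; open symbols were not called and dotted lines mark ±0.6. The J1 values are called to the right for 7 genes in both EPSC types and 9 genes are called to the left in each tet-off line, with Spry4 spanning 4.88 to −6.71.

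The size of the fall differed among the 3 lines for 5 of the 10 members by limma's interaction test. That share is to be read against 35.7% of all genes. By edgeR it differed for 8 of the 10, beside 9132 of all 24007 genes. Highest minus lowest log2 fold change was 1.96 for Spry4, 1.50 for Egr1, 1.02 for Etv5, 0.98 for Spry2 and 0.63 for Spred2 (limma adjusted p = 0.000438, 0.00144, 4.57e-09, 7.15e-05 and 7.38e-05). Egr1 fell least in the Nanog-cKO line, the line in which Etv5 fell most. The differences of 1.26 for Etv4, 1.19 for Dusp6, 0.46 for Spred1 and 0.38 for Dusp4 did not pass (limma adjusted p = 0.0691, 0.132, 0.202 and 0.748), and the first 3 of these passed by edgeR. Restricted to genes with a mean of 10 or more, the limma differences of Etv4 and Dusp6 passed too.

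Set side by side, the J1 and tet-off conversions to L-EPSCs had opposite signs for 9 members. Among these, Spry1 was not called in the tet-off lines and Spred2 was not called in J1. The share of all genes with opposite signs was not counted, so the count of 9 stands without a background. When the reads of both tables were scaled together, the difference between the J1 conversion and the mean of the 3 tet-off conversions passed limma's test for all 10 members, a test that 47.8% of 22233 genes passed. It was 10.83 on the log2 scale for Spry4, 8.61 for Egr1, 7.58 for Dusp6, 4.91 for Etv4, 4.50 for Dusp4, 3.37 for Spred1 and 3.20 for Spry2, and it was 2.06 for Spry1, 1.60 for Etv5 and 1.15 for Spred2. The limma adjusted p was lowest for Spry4, at 1.63e-25, and highest for Spry1, at 2.7e-10. For Etv5 both signs were negative, with a J1 value of −0.076 and a tet-off mean of −1.67, and only the tet-off falls were called. Being called higher in J1 L-EPSCs and lower in all 3 tet-off conversions was rare over the genome, at 241 of the 20812 genes tested in both tables (1.16%), and 7 of the members were among them, all but Spry1, Spred2 and Etv5. The cell line, its genotype and the table differ together between J1 and the tet-off lines and cannot be told apart, and whether the ESC medium differed is not known. The fibroblast marker sums given above differed as well. Per the study's methods EPSCs were grown without feeders for several passages before RNA was taken. The same methods keep J1 ESCs on inactive fibroblast feeders or on gelatin, and which was used before RNA was taken is not stated. The part of feeder RNA in the J1 ESC levels was not tested.

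**Figure D3:**
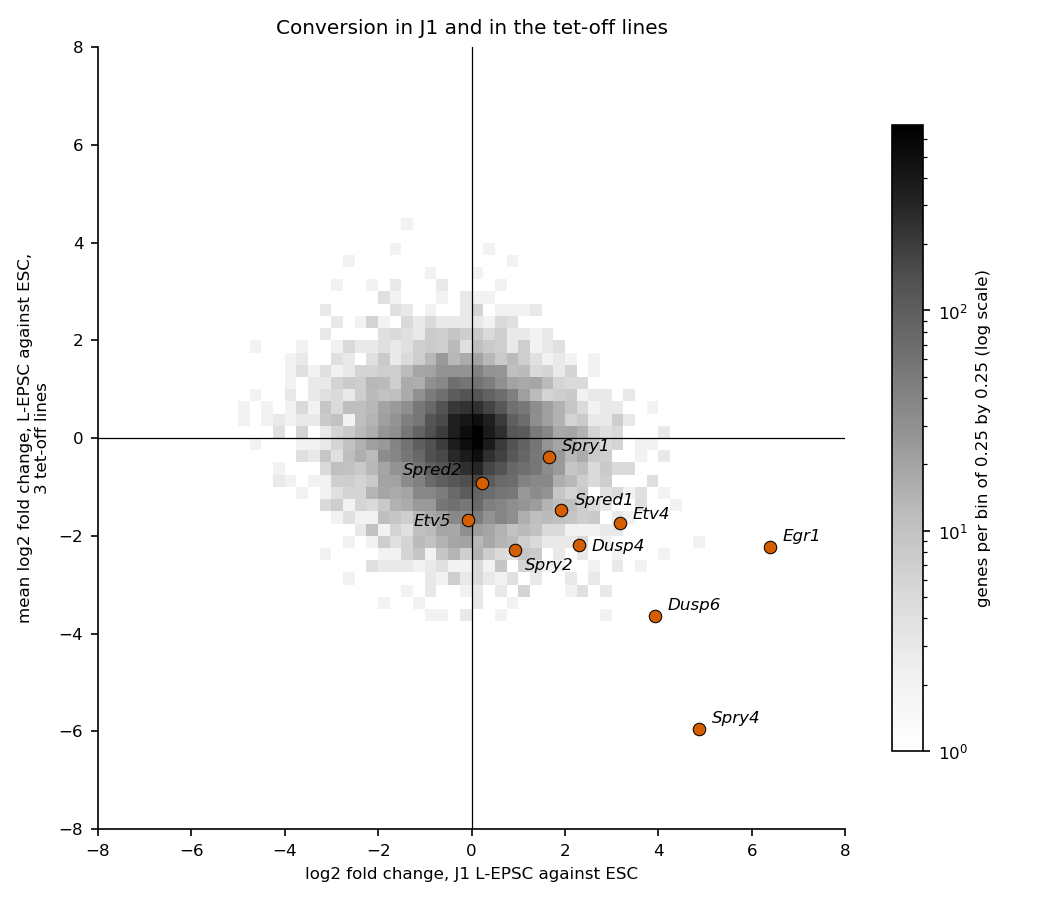
Each square counts genes by their log2 fold change of L-EPSCs against ESCs in J1 (horizontal axis) and by the mean of the 3 tet-off lines (vertical axis), in bins of 0.25; the 10 members are in orange. The members lie in the lower right except Etv5, which sits just left of 0 with a J1 value of −0.076, and Spry4 lies farthest from the centre at 4.88 and −5.95.

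Levels were also ordered across all 12 groups. Here too the cell line, its genotype and the table differ together between J1 and tet-off groups and cannot be told apart. Scaling the reads together does not remove a difference between the tables. On the joint scale, on which the reads of both tables were scaled together, both J1 ESC libraries lay below all 6 tet-off ESC libraries for 10 of 10 members, an order held by 21.7% of the 20812 genes tested in both tables. Both J1 L-EPSC libraries lay above all 6 untreated tet-off L-EPSC libraries for 9 of 10, all but Spry1, an order held by 25.3% of them. Egr1 averaged 439 in Sox2-cKO ESCs, 430.1 in J1 L-EPSCs, 308 in Oct4-cKO ESCs, 294 in Nanog-cKO ESCs, 127.5 in J1 D-EPSCs and 4.19 in J1 ESCs, the lowest of the 12 groups. The J1 ESC level of Egr1 was below every untreated tet-off L-EPSC library, and so was that of Spry1, an order held by 23.4% of all genes.

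Spry4 averaged 3078 in Nanog-cKO ESCs, 2674 in J1 L-EPSCs, 2189 in Oct4-cKO ESCs, 1629 in J1 D-EPSCs, 953 in Sox2-cKO ESCs and 90.2 in J1 ESCs, all above the 34.3 of Sox2-cKO L-EPSCs. For Spry2, Spry4, Spred2 and Etv5 the J1 ESCs were above every untreated tet-off L-EPSC library, as for 26.9% of all genes. Spred1 and Etv4 in J1 L-EPSCs were above every tet-off ESC library (20.4% of all genes), whereas Spry2, Spred2 and Etv5 were below all of them (20.0%). Dusp6 averaged 1278 in Sox2-cKO ESCs, 1096 in J1 L-EPSCs, 789.8 in Nanog-cKO ESCs, 734 in Oct4-cKO ESCs and 708 in J1 D-EPSCs, then dropped to 135 in Sox2-cKO L-EPSCs, with 70.9 in J1 ESCs.

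Dox was added to the tet-off L-EPSCs to ask what the loss of each factor does. Of the 10 members, 8 fell with Dox in the Oct4-cKO line and 8 in the Sox2-cKO line, and 1 fell in the Nanog-cKO line. A log2 fold change beyond 1 was required here, and 10.8%, 7.32% and 2.59% of all genes were called lower. The members' median log2 fold changes were −3.34, −2.08 and −0.15, beside 0 over all genes in each. With Spry4 in the Oct4-cKO line at its bound the first median was −2.95.

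Spry4, already low in untreated L-EPSCs, was not detected in Oct4-cKO L-EPSCs with Dox, with 0 reads in both libraries against 55 in the untreated pair. At a floor of 3 reads per library it was at least 7.23-fold lower. In the Sox2-cKO line it read 1.65 and 1.64 with Dox, 2 reads in each library, against 34.6 and 32.9, and the untreated level was 20.5-fold higher (95% interval 7.64 to 77.6, counting error only). In the Nanog-cKO line it read 18.4 and 16.9 against 20.2 and 38.7, a log2 difference of −0.64 that was not called (limma adjusted p = 0.0665). Without untreated replicate 1 that difference was −1.09 (limma adjusted p = 0.00115), which would be called.

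Spry2 read 69.1 and 66.6 with Dox in the Oct4-cKO line and 111 and 98.1 in the Sox2-cKO line, below the untreated 379 to 404 and 334 to 342. It fell in both, at −2.51 and −1.68 on the log2 scale (limma adjusted p = 3e-12 for the Oct4-cKO line). In the Nanog-cKO line it read 372 and 292 with Dox against 219 and 254, an opposite log2 difference of 0.48 under the fold required (limma adjusted p = 0.00169). Spry1 read 92.4 and 80.9 with Dox in the Sox2-cKO line against 191 and 178, and it fell there, at −1.08 (limma adjusted p = 2.48e-05), but at −0.99 without Dox replicate 2. It read 95.6 and 95.5 against 134 and 162 in the Oct4-cKO line, at −0.62, and 112 and 149.5 against 150.2 and 143 in the Nanog-cKO line, at −0.17, neither called.

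The phosphatases fell to a few reads in the Oct4-cKO and Sox2-cKO lines. Dusp4 read 2.30 and 4.44 with Dox in the Oct4-cKO line against 61.2 and 62.0, and 2.47 and 5.72 in the Sox2-cKO line against 131 and 129.7, by −3.88 and −4.76 on the log2 scale (limma adjusted p = 6.39e-09 and 7.45e-10). Dusp6 read 2.30 and 8.88 against 63.9 and 79.9, and 9.07 and 6.54 against 126 and 139.7, by −3.67 and −3.94 (limma adjusted p = 2.67e-07 and 1.43e-07). In the Nanog-cKO line Dusp4 read 30.7 and 27.0 against 56.5 and 45.9, a log2 difference of −0.80 that was not called (limma adjusted p = 0.0491), and Dusp6 read 29.9 and 39.3 against 45.8 and 27.5, at −0.05 with a 95% interval of −0.81 to 0.71.

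Spred1 read 16.1 and 25.5 with Dox in the Oct4-cKO line against 261 and 263, and 87.4 and 74.4 in the Sox2-cKO line against 399.7 and 363, by −3.63 and −2.23 on the log2 scale (limma adjusted p = 5.66e-12 and 3.97e-09). In the Nanog-cKO line its libraries overlapped, at 267 and 291 against 276 and 324. Spred2 read 263 and 244 against 609 and 615 in the Oct4-cKO line, where it fell by 1.27. It read 542 and 523 against 866 and 810.1 in the Sox2-cKO line and 579 and 576 against 816 and 884 in the Nanog-cKO line, with log2 differences of −0.65 and −0.56 under the fold required.

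At the log2 fold of 1 required here, Etv4 was the one member that fell with Dox in all 3 lines. At 0.6, Dusp4 was called lower in all 3 as well. Etv4 read 20.7 and 6.66 against 335 and 327 in the Oct4-cKO line, 13.2 and 15.5 against 326 and 299 in the Sox2-cKO line, and 45.7 and 56.2 against 375 and 322 in the Nanog-cKO line. The log2 fold changes were −4.69, −4.35 and −2.75 (limma adjusted p = 9.58e-10, 3.59e-09 and 2.72e-06). Etv5 read 284 and 293 against 2383 and 2424, and 601 and 616 against 2290.2 and 2379, by −3.05 and −1.94 (limma adjusted p = 1.55e-17 and 7.04e-15), while the Nanog-cKO libraries overlapped, at 1130.5 and 1038 against 1159.9 and 1095.

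Egr1 was called with Dox in none of the lines. Its libraries with Dox read 64.5 and 44.4, 56.1 and 63.8, and 135 and 92.2 in the Oct4-cKO, Sox2-cKO and Nanog-cKO lines, and each pair overlapped the untreated pair. The log2 differences were 0.23, −0.08 and −0.12 (limma adjusted p = 0.454, 0.878 and 0.809).

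**Figure D4:**
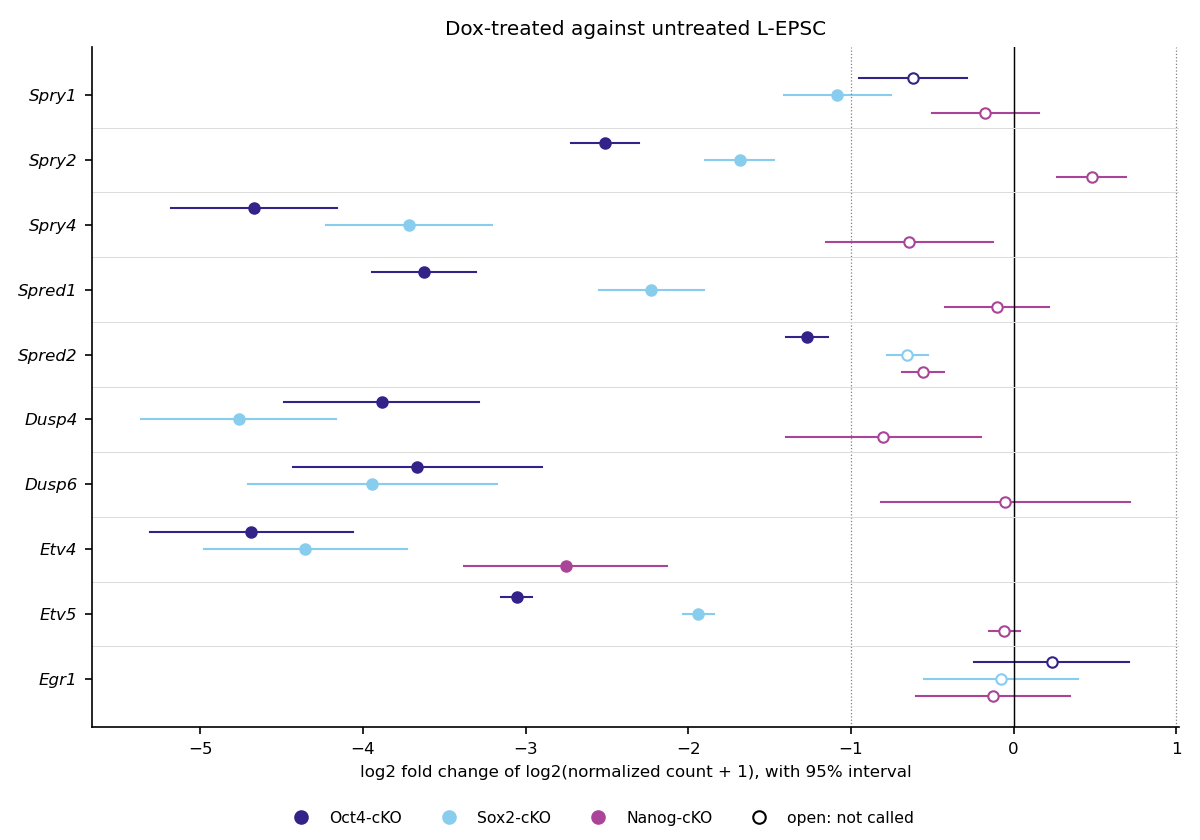
The horizontal axis gives the log2 fold change of L-EPSCs with Dox against without for the 10 genes in the 3 tet-off lines, with bars for 95% intervals; open symbols were not called and dotted lines mark −1 and 1. Oct4-cKO and Sox2-cKO values lie far to the left for most genes. Nanog-cKO values run from −0.80 (Dusp4) to 0.48 (Spry2), except Etv4 at −2.75. The fitted Oct4-cKO value of Spry4 depends on the pseudocount, since its Dox libraries held 0 reads.

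The effect of Dox differed among the lines for 9 of the 10 members by limma's interaction test, which 41.0% of all genes passed. Highest minus lowest log2 fold change was 4.03 for Spry4, 3.96 for Dusp4, 3.89 for Dusp6, 3.52 for Spred1, 3.00 for Etv5, 2.99 for Spry2, 1.93 for Etv4, 0.91 for Spry1 and 0.71 for Spred2. It was 0.36 for Egr1 and did not pass (limma adjusted p = 0.62). The difference of Spry1 missed the threshold without Sox2-cKO Dox replicate 2, at 0.81 (limma adjusted p = 0.0538). ESC marker genes and trophoblast marker genes moved in the same comparisons. Of 10 ESC markers, 10, 10 and 2 fell with Dox in the Oct4-cKO, Sox2-cKO and Nanog-cKO lines, and of 12 trophoblast markers 8, 10 and 1 rose. The ESC markers include the targeted transcripts Pou5f1, Sox2 and Nanog, and also Fgf4, in the counts and in the sums. Nanog and Fgf4 were the 2 that fell in the Nanog-cKO line. Summed ESC markers were 55406.3 to 56632.6 without and 7009.73 to 7166.31 with Dox in the Oct4-cKO line, 61208 to 61524.7 and 12207.6 to 12700.6 in the Sox2-cKO line, and 63963 to 64747 and 39057 to 40381 in the Nanog-cKO line. Summed trophoblast markers were 4883.08 to 5065.97 without and 30018.3 to 30474.5 with Dox in the Oct4-cKO line, 2274.01 to 2331.47 and 13076.8 to 13141.9 in the Sox2-cKO line, and 751 to 799 and 1096 to 1121 in the Nanog-cKO line. Their part in the result was not tested.

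Other genes of the pathway moved less uniformly. The list counts that follow, and the marker counts above, are to be read against those over all genes. Of all 21533 genes tested in J1, 2316 were called higher and 2150 lower in D-EPSCs, and 1895 and 2485 in L-EPSCs. Of all 24007 tested in the tet-off lines, 3118, 1918 and 2928 were called higher on conversion and 3704, 2795 and 3529 lower. With Dox, 2047, 1870 and 672 of them were higher and 2590, 1758 and 621 lower. The list of 15 further ERK feedback genes tested also holds Etv1, Fosl1, Myc and Ccnd1. Of the 15, 5 were higher and 1 lower in J1 D-EPSCs, and 7 were higher and 1 lower in J1 L-EPSCs. Dusp9, another ERK phosphatase, rose in J1 L-EPSCs by 2.65 on the log2 scale, from a mean of 231 to 1448 normalized counts. It also rose in the Nanog-cKO conversion, by 0.61, and with Dox in the Oct4-cKO and Sox2-cKO lines, by 1.22 and 1.13. Dusp1 fell in J1 D-EPSCs, at −1.01. In the Oct4-cKO and Sox2-cKO conversions Dusp1 rose by 0.88 and 0.61, and in the Nanog-cKO conversion it fell, at −0.61. Dusp5 rose in J1 D-EPSCs and L-EPSCs, by 1.77 and 1.76, and in the Nanog-cKO conversion, by 0.83. In the tet-off conversions 6, 7 and 7 of the 15 fell in the Oct4-cKO, Sox2-cKO and Nanog-cKO lines and 2, 1 and 2 rose. Etv1, the third member of the Etv4 and Etv5 subfamily, rose in J1 D-EPSCs by 0.96 and fell in the tet-off lines, with log2 fold changes of −2.29, −1.78 and −4.05.

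Myc, a growth regulator that also answers to other pathways, rose by 1.93 in J1 L-EPSCs and fell on tet-off conversion, with log2 fold changes of −3.90, −3.11 and −5.68. With Dox it parted from the members, rising by 4.70, 3.49 and 1.32 in the Oct4-cKO, Sox2-cKO and Nanog-cKO lines. Ccnd1, which encodes cyclin D1, fell with Dox, with log2 fold changes of −5.00, −4.28 and −1.43. With Dox, 4, 4 and 2 of the 15 genes on the feedback list were higher and 3, 3 and 1 lower. In each line Myc is among the higher and Ccnd1 among the lower. The list's median log2 fold change was 0.24 in J1 D-EPSCs, 0.59 in J1 L-EPSCs and −0.16, −0.77 and −0.53 in the tet-off conversions.

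Other immediate-early genes moved in both directions. Transcripts of this class appear without new protein synthesis. Of 15 others tested in J1, 2 were higher and 2 lower in each EPSC type. Of 16 tested in the tet-off conversions, 6, 3 and 7 were higher and 4, 3 and 2 lower. Fos, an AP-1 subunit, rose with Egr1 in J1 D-EPSCs and L-EPSCs, at 2.43 and 1.13 on the log2 scale (limma adjusted p = 0.000108 and 0.00594). It also rose by 3.88, 2.58 and 3.75 on the log2 scale in the lines in which Egr1 fell, from 56.6 to 839 normalized counts in the Oct4-cKO line and from 73.4 to 989 in the Nanog-cKO line. Jun rose by 2.09 and 1.68 in the Oct4-cKO and Nanog-cKO lines and stood at −0.17 in the Sox2-cKO line, where it was not called. Ier2 fell in all 3, at −1.76, −0.82 and −1.20 in the Oct4-cKO, Sox2-cKO and Nanog-cKO lines. With Dox, 4, 6 and 0 were higher and 1, 1 and 1 lower.

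Upstream of ERK, 13 FGF ligands and receptors were tested. In J1, 5 were higher and 3 lower in D-EPSCs, and 5 were higher and 5 lower in L-EPSCs. Fgf17 rose by 4.71 and 3.83 and Fgf10 fell, at −2.49 and −2.07, in D-EPSCs and L-EPSCs, and Fgfr2, a receptor, rose by 2.10 in D-EPSCs. In the tet-off conversions 2, 1 and 5 were higher and 4, 4 and 4 lower. With Dox, 8, 8 and 4 of the 13 fell and 2, 1 and 0 rose, with list medians of −1.83, −1.83 and −0.59. Fgf4, the ligand that ESCs make themselves, fell with Dox in the Oct4-cKO, Sox2-cKO and Nanog-cKO lines, at −5.28, −2.90 and −1.29. It also fell in J1 L-EPSCs, at −1.03 (limma adjusted p = 1.29e-06), where 8 members rose, and it was not called in the tet-off conversions.

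Of 28 genes of the cascade, from adaptors to ERK substrates, 3 were higher and 2 lower in J1 D-EPSCs, 1 was higher and 3 lower in J1 L-EPSCs, and 3, 1 and 4 were higher and 4, 4 and 3 lower in the tet-off conversions. With Dox, 0, 2 and 0 were higher and 4, 2 and 0 lower. Eras, a Ras protein of ESCs, moved with the members on conversion, rising by 2.38 and 2.16 in J1 D-EPSCs and L-EPSCs and falling in the tet-off lines, at −1.60, −1.36 and −1.09.

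**Figure D5:**
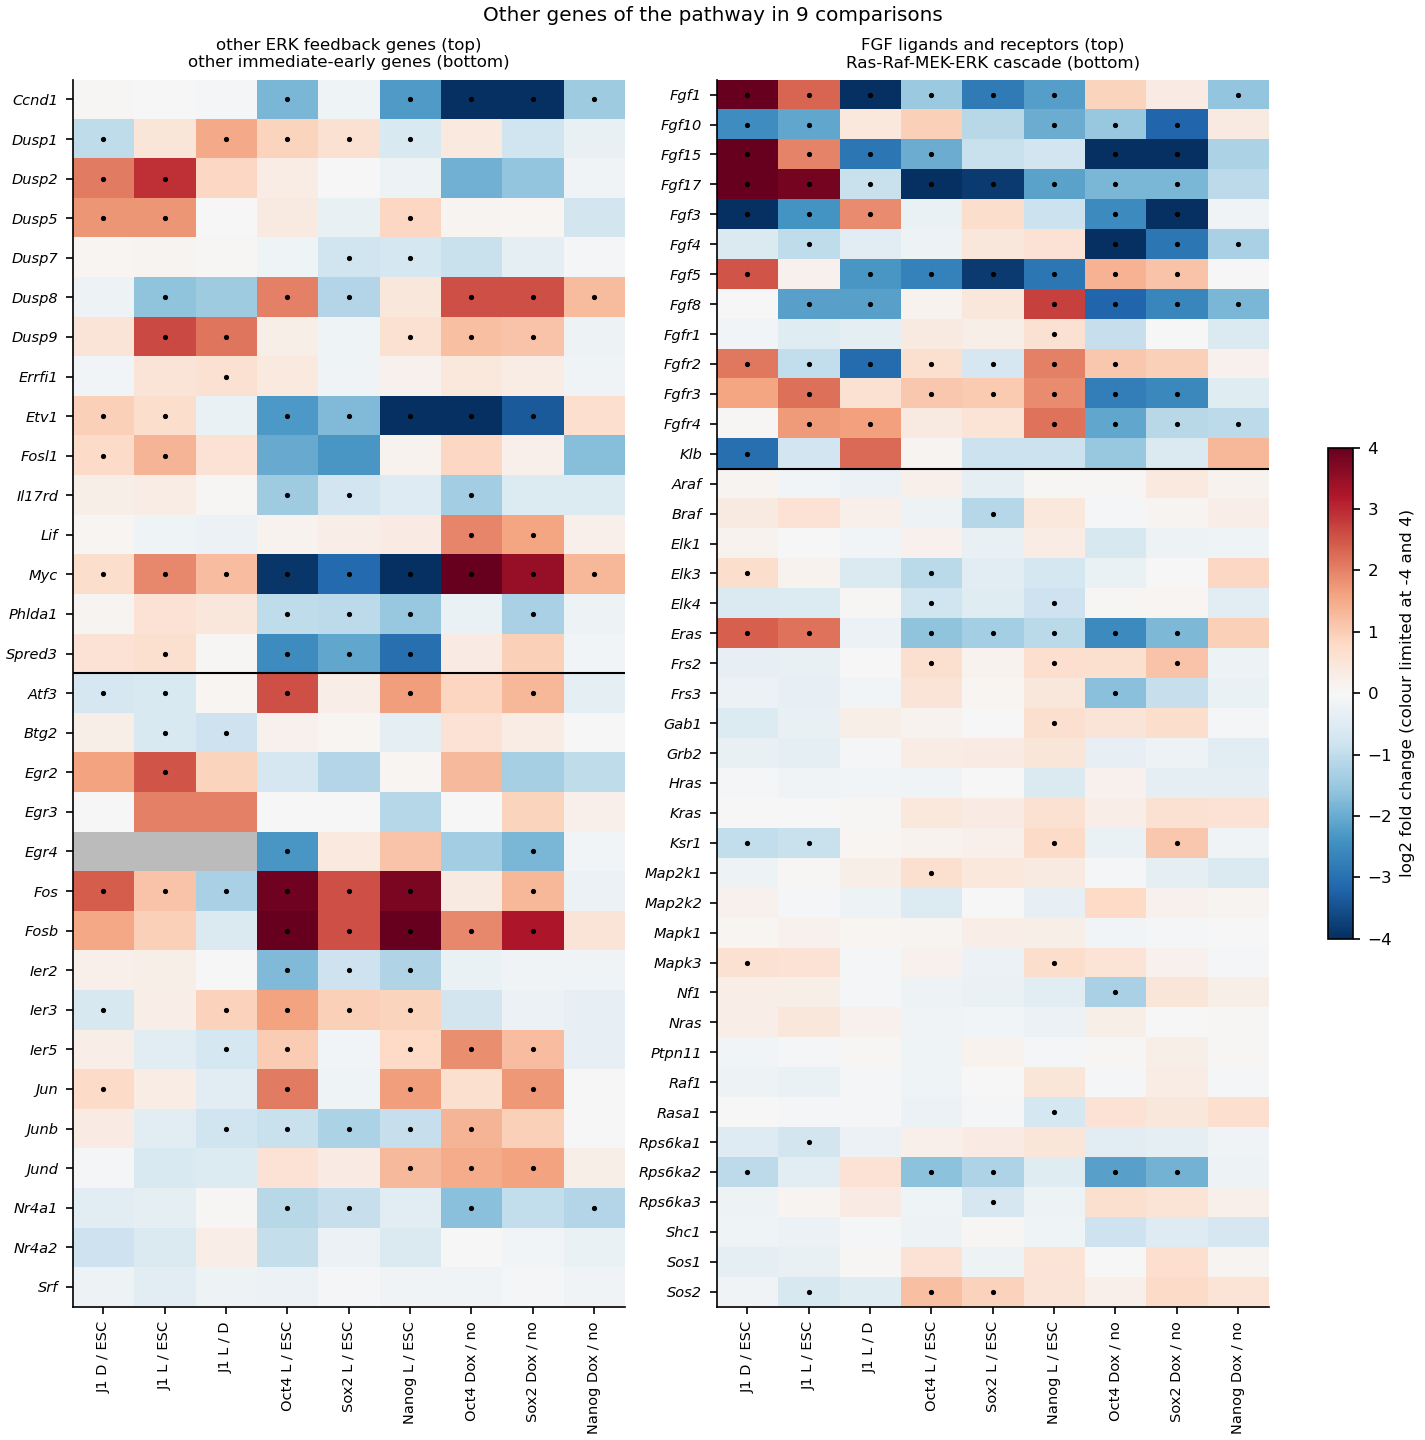
Colour gives the log2 fold change of each gene (rows, in 4 lists) in the 9 comparisons (columns), limited at ±4; a dot marks a called gene and grey a gene not tested. The feedback genes show the opposite J1 and tet-off columns in part, Fos rises in all 3 tet-off conversions, and Eras, among the 28 cascade genes, rises in J1 and falls in the tet-off conversions.

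Among the members, levels across the 9 tet-off groups ran in parallel. Pearson r of the group means of log2(normalized count + 1) over the 45 pairs of members was 0.688 at its lowest (Egr1 with Etv4), 0.918 at the median and 0.993 at its highest (Spry1 with Dusp4). The groups share lines and tables, so these values describe the groups and carry no test. Pairs of other genes were not measured the same way, so whether such values are particular to the members was not tested. Among the 10030 genes whose mean reached 100 normalized counts, those closest to Etv5 were Etv1 (0.988), Tfdp2 (0.987) and Ggnbp1 (0.986). Those closest to Dusp6 were Nexmif (0.988), Tfdp2 (0.981) and Etv5 (0.979), and those closest to Spry2 were Tle4 (0.984), Pias2 (0.982) and Spry4 (0.981). Egr1 had the lowest closest match of the members, Trip6 at 0.977, followed by Dlc1 at 0.971.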

How the data were processed

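Per the labels and the study's methods, poly(A) RNA libraries were sequenced as paired ends, trimmed with Trim Galore 0.6.4, aligned to NCBIM37 (mm9) with STAR 2.7.9a and counted per gene with HTSeq 0.11.2, and the submitters' notes give DESeq2 as 4.1.1. The strand setting is not given in the sources used here. The deposited signal values are gene counts that the authors divided by DESeq2 size factors, separately for the J1 and the tet-off table. Whole reads were recovered from them within a tolerance of 0.01. At least 99.9957% of values in each J1 column and all in the tet-off columns came out whole.

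Groups came from the labels. Log2(normalized count + 1) was fitted with limma 3.58.1 in R 4.3.3, all groups of a table in 1 fit, over 21533 (J1) and 24007 (tet-off) genes with over 1 read in total, with Benjamini-Hochberg adjustment over all of them. Genes were called at adjusted p below 0.05 with log2 fold changes exceeding 0.6 (conversion) or 1 (Dox) in size. Interaction terms tested differences among lines. Median depth was 13076077 and 12109406 reads, and the edgeR biological coefficient of variation was 0.0281 and 0.0301, so members with a few reads are the least precise. Intervals and floors from reads cover counting error only. Alternatives were edgeR 4.0.16, DESeq2 1.42.0, TMM scaling, another pseudocount, filter and fold, 2 groups alone, a replicate block, and leaving out each library. The recovered reads entered edgeR and DESeq2.

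The members and lists were chosen with earlier results of these data known. Genes named from the lists came from a pick made per comparison. It took up to 2 called genes with the highest and 2 with the lowest change at a mean of at least 100 normalized counts. Not every picked gene is named, and values of named genes in other comparisons were added. Ccnd1 and Myc, both on the feedback list, were named as shared with other pathways. Scripts were tested on simulated data.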

Additional observations from a re-analysis of the deposited data

Results flagged for a closer look

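The effects below were flagged because the same contrast differed between lines by an interaction test in limma. The conversion effect differed among the 3 tet-off lines for 5 members and for 35.7% of all genes. Its highest minus lowest log2 fold change was 0.98 for Spry2, 1.96 for Spry4, 0.63 for Spred2, 1.02 for Etv5 and 1.50 for Egr1. The Dox effect differed for 9 members and for 41.0% of all genes. Its highest minus lowest value was 0.91 for Spry1, 2.99 for Spry2, 4.03 for Spry4, 3.52 for Spred1 and 0.71 for Spred2. It was 3.96 for Dusp4, 3.89 for Dusp6, 1.93 for Etv4 and 3.00 for Etv5.

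The J1 conversion minus the mean tet-off conversion differed from 0 for all 10 members and for 47.8% of 22233 genes. The difference in log2 fold change was 2.06 for Spry1, 3.20 for Spry2, 10.83 for Spry4, 3.37 for Spred1, 1.15 for Spred2, 4.50 for Dusp4, 7.58 for Dusp6, 4.91 for Etv4, 1.60 for Etv5 and 8.61 for Egr1. Cell line and table differ together there and cannot be told apart.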

How the results depend on the processing

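Of the member counts under all alternatives, 159 stayed within 1.5 times the reported count and 4 moved. With a log2 fold threshold of 1 in place of 0.6, 3 members rather than 5 were called between the J1 EPSC types. With 0.6 in place of 1, 2 members rather than 1 were lower with Dox in the Nanog-cKO line, and so were 2 without untreated replicate 1. With edgeR, 8 members rather than 5 differed among the tet-off conversions, beside 9132 rather than 8569 of all 24007 genes. Leaving out 1 library at a time, the counts were 6 to 7 for J1 D-EPSCs against ESCs, 8 for L-EPSCs against ESCs, 4 to 5 between the EPSC types, 9, 7 to 9 and 9 for the Oct4-cKO, Sox2-cKO and Nanog-cKO conversions, 8, 7 to 8 and 1 to 2 for Dox in the same order, 5 and 8 to 9 for the differences among lines in conversion and Dox, and 10 for J1 against tet-off.

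Of the single-gene values, 1592 kept their direction and side of the threshold, 17 lost and 9 gained the call, and 12 changed sign. None of those 12 was called: Spred2 between the EPSC types (−0.024 without D-EPSC replicate 1 and −0.025 without L-EPSC replicate 2), Egr1 with Dox in the Oct4-cKO line (−0.030 without Dox replicate 1 and −0.00974 without untreated replicate 1) and in the Sox2-cKO line (0.012 and 0.17 likewise), and, with Dox in the Nanog-cKO line, Dusp6 (0.14 and 0.31 likewise), Spry1 (0.030 without Dox replicate 1), Etv5 (0.0044) and Egr1 (0.15) without Dox replicate 2, and Spred1 (0.015 without untreated replicate 2). Leaving out 1 library at a time, these ranged from −0.025 to 0.044 for Spred2 between the EPSC types, −0.030 to 0.50 and −0.33 to 0.17 for Egr1 in the Oct4-cKO and Sox2-cKO lines, and, in the Nanog-cKO line, from −0.41 to 0.31 for Dusp6, −0.38 to 0.030 for Spry1, −0.12 to 0.0044 for Etv5, −0.40 to 0.15 for Egr1 and −0.22 to 0.015 for Spred1. The cause was not tested.

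With the replicate number as a block, the member counts were the same in all 12 comparisons (7, 8, 5, 9, 9, 9, 8, 8, 1, 5, 9 and 10). The numbers did not pair the samples: same-numbered deviations correlated at −0.00757 to 0.0264 in J1 and at −0.0625 to 0.0626 in the tet-off table, over 0.1 in 0 of 3 and 0 of 36 pairs. DESeq2, the 2 groups alone and the other fold threshold were not run for the differences between lines. Depth limits Spry4, Dusp4, Dusp6 and Etv4 with Dox and Egr1 in J1 ESCs, which rest on few reads.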
